A study of Rattus norvegicus with 15 samples.

Results

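Fragments of transfer RNAs (tsRNAs) were described in the left ventricle of 5 untreated Sprague-Dawley rats, 1 small RNA library per rat, out of the 15 libraries of the series. The 5 libraries were chosen by their label (normal rat, untreated) and not by any measured value, and all 714 listed tsRNAs were taken. The other 10 libraries came from rats given isoproterenol with or without prior caloric restriction, and their values are not used below. The listed names are those with reads in the series, so counts and medians over names depend on these libraries too. The labels name no allele, diet or agent for the untreated rats, and the sources used here give no age or sex for them. Whole left ventricle holds muscle cells, vessels, connective tissue and blood, so a level is an average over these cells. Fewer cells of a type and less RNA per cell cannot be told apart. Marker transcripts of heart cells were not analysed here, so the tissue label rests on the labels alone.

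Transfer RNAs carry amino acids to the ribosome, and each reads codons through the 3 bases of its anticodon. Cutting of a mature or precursor tRNA leaves shorter RNAs. Cleavage within the anticodon loop, by angiogenin among other enzymes, gives the long products named tiRNA, and other cuts give the fragments named tRF. Such fragments have been studied as regulators of translation and as products of stress. Cardiac muscle is rich in mitochondria, which encode tRNAs of their own. The name of each tsRNA in the deposited table gives the class, the parent amino acid, the anticodon in DNA letters and a serial number. Of the 714 names, 665 (93.1%) were tRFs and 49 (6.86%) were tiRNAs. They came from 20 amino acids and 46 isoacceptors, that is, tRNAs that share an amino acid and an anticodon. Fragments of 1 isoacceptor can be nearly identical in sequence, so single species within a parent are uncertain.

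The deposited values are CPM, reads per 1000000 reads of a library total. In each library they fell on whole steps of 1 read (within 0.001 reads), which gave totals of 273178, 424219, 269508, 1128887 and 381563 reads in replicates 1 to 5. Listed tsRNAs took 31.3%, 24.2%, 26.7%, 25.2% and 35.7% of these totals, a mean of 28.6% ± 4.77 (SD, n = 5). The kinds of RNA in the rest of the totals are not stated, so a CPM is relative to a base of which most is of unknown make-up. Replicate 4 stood apart from the rest. Its total was the highest, while its median tsRNA was at 4.43 CPM, against 11.8 to 18.3 CPM in the other 4 rats. The median tsRNA had 4.5 to 5 reads in every library, so the CPM of a scarce fragment was low where the total was high. For several results that move with replicate 4 the value without it is given too. No test between fragments or parents was made: there is 1 group, and an exact two-sided paired test of 5 libraries cannot go below 0.0625. The spread between the 5 rats and the number of rats that show an order are given in place of p-values. Intervals of shares are exact 95% binomial intervals. They cover counting error only and treat each amplified read as a separate molecule. CPM compares fragments by the reads they gave, and unequal capture of fragments by the library chemistry was not tested.

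Untreated ventricle held a pool of many tsRNAs, but few of them made up most of the reads. A read was seen for 598, 608, 600, 593 and 620 tsRNAs in replicates 1 to 5, a mean of 603.8 ± 10.5. In all 5 rats 470 tsRNAs (65.8%) had a read, 231 (32.4%) had one in 1 to 4 rats, and 13 (1.82%) in none. The number with at least 5 reads was 357 to 379 per library. The most abundant tsRNA alone took 42.8%, 36.2%, 33.6%, 28.1% and 44.0% of the listed reads. The 10 most abundant took 71.3%, 69.5%, 67.6%, 75.4% and 76.4%, a mean of 72.0% ± 3.78. The first 2 or 3 tsRNAs of each library already reached 50% of its listed reads. To reach 90%, 58, 54, 70, 26 and 41 tsRNAs were needed, so the reads were spread over fewest tsRNAs in replicate 4. Without replicate 4 the mean of this number was 55.8 in place of 49.8.

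**Figure D1:**
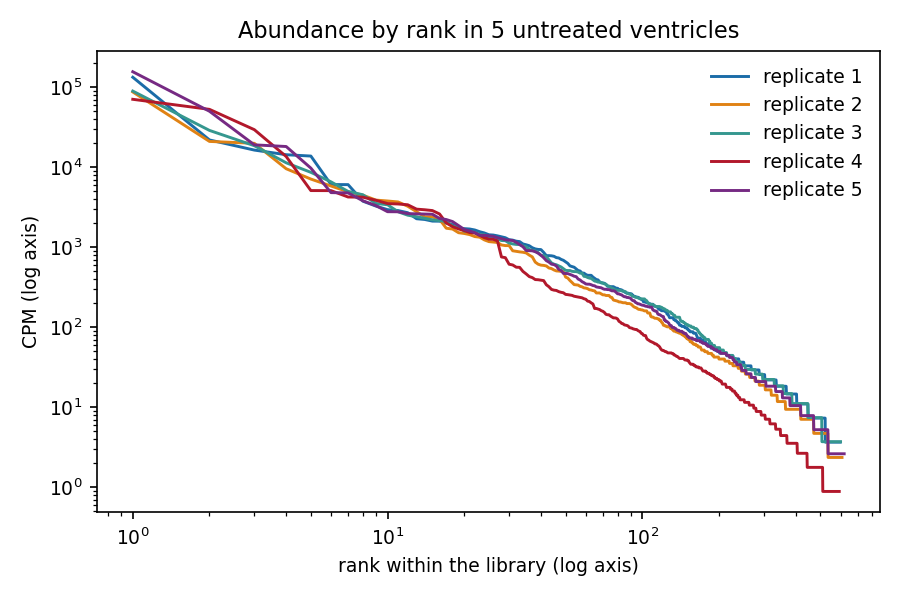
CPM of each tsRNA (log axis) against its rank within its own library (log axis), 1 line per untreated rat, with tsRNAs at 0 left out. The lines lie close together over the first ranks, and replicate 4 falls below the other 4 at the scarce end, where its median tsRNA was at 4.43 CPM.

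The range of levels was wide. Of the 714 tsRNAs, 4 averaged at least 10000 CPM and held 61.5% of the listed reads, 33 averaged at least 1000 CPM and held 85.7%, and 136 averaged at least 100 CPM and held 96.5%. At the low end 308 tsRNAs (43.1%) averaged under 10 CPM. The median over all names was 13.1 CPM, and the first tsRNA was 8233 times that. The tiRNA class stood higher by name: the median was 31.9 CPM over 49 tiRNAs and 12.8 CPM over 665 tRFs. A read in all 5 rats was found for 41 of 49 tiRNAs (83.7%) and 429 of 665 tRFs (64.5%). The 13 tsRNAs with 0 reads in the 5 libraries were all tRFs. They included 4 of the 30 His-GTG fragments, tRF-Asn-GTT-022, tRF-Asp-GTC-041 and tRF-Gly-TCC-050. Over the 5 libraries together, 0 reads allow a level of up to 1.21 CPM (3 reads of the summed totals).

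Glycine tRNA with the anticodon GCC was the leading parent, and its fragments took places 1, 2, 4 and 5 by mean CPM. tRF-Gly-GCC-026 was at 133938, 87672, 89945, 70941 and 156881 CPM in replicates 1 to 5, a mean of 107875 ± 35968 CPM (SD, n = 5). It was the most abundant tsRNA in each of the 5 rats, 3.55 times the mean of the next one. tRF-Gly-GCC-015 was at 22008, 21093, 28960, 29595 and 50283 CPM, highest in replicate 5. tRF-Gly-GCC-027 was at 13841, 9611, 11406, 13667 and 19116 CPM. In CPM, replicate 5 was thus the highest rat for each of these 3 fragments. As a share of the listed reads, tRF-Gly-GCC-027 was highest in replicate 4, at 5.42% against 5.36% in replicate 5. tRF-Gly-GCC-026 and tRF-Gly-GCC-015 were highest in replicate 5 by share too. tRF-Gly-GCC-025 was at 14386, 5841, 8664, 2881 and 9786 CPM, and its rank ran between 4 and 15 from rat to rat. The 3 other Gly-GCC tRFs among the first 20 averaged 3318 ± 432 CPM (tRF-Gly-GCC-023), 2271 ± 1016 CPM (tRF-Gly-GCC-016) and 1743 ± 881 CPM (tRF-Gly-GCC-014).

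The third most abundant tsRNA was a tiRNA of serine tRNA, the tRNA that reads the AGC and AGU codons. tiRNA-Ser-GCT-001 was at 16440, 19983, 18645, 53100 and 18217 CPM. Replicate 4 was far above the other 4 rats, which were close to each other: the mean was 25277 ± 15605 CPM over 5 rats and 18321 CPM without replicate 4, with a coefficient of variation (SD over mean) of 61.7% and 7.98%. A lysine tiRNA varied little in CPM. tiRNA-Lys-CTT-002 was at 3778, 4488, 4542, 4233 and 4830 CPM, and the highest rat was 1.28 times the lowest. Its coefficient of variation was 9.03% in CPM and 17.1% as a share of the listed reads.

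Tryptophan fragments with the anticodon TCA, the form of the mitochondrial tryptophan tRNA, took 3 of the first 20 places. tRF-Trp-TCA-001 was at 6095, 7138, 6582, 5125 and 4791 CPM. tRF-Trp-TCA-003 was at 6080, 4950, 4998, 1814 and 3821 CPM, lowest in replicate 4. tRF-Trp-TCA-002 was at 2277, 2407, 2208, 1619 and 1869 CPM. The remaining tsRNAs of the first 20 came from glutamine (tRF-Gln-TTG-054 and tRF-Gln-TTG-055), serine (tRF-Ser-GCT-035 and tRF-Ser-GCT-034), proline (tRF-Pro-TGG-016 and tRF-Pro-TGG-017), glycine (tiRNA-Gly-GCC-002) and glutamate (tRF-Glu-CTC-020), with means of 1522 to 3546 CPM.

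Neighbours among the first 20 did not all keep their order. The first tsRNA was above the second in 5 of 5 rats, and each of the next 3 steps held in 4 of 5. From place 5 to place 20 neighbours kept their order in 2 to 4 of 5 rats, so no 2 neighbours there were ordered alike in every rat. Places far apart did separate: tRF-Trp-TCA-001, at place 6, was at 4791 CPM or more in every rat, and tRF-Glu-CTC-020, at place 20, at 1695 CPM or less. Of the 29 tsRNAs that were among the first 20 of any library, 14 were among the first 20 of every library. Pairs of libraries shared 15 to 17 of their first 20, and Pearson's r between libraries on log2(CPM + 1) was 0.874 to 0.921 across tsRNAs, which are not independent replicates.

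**Figure D2:**
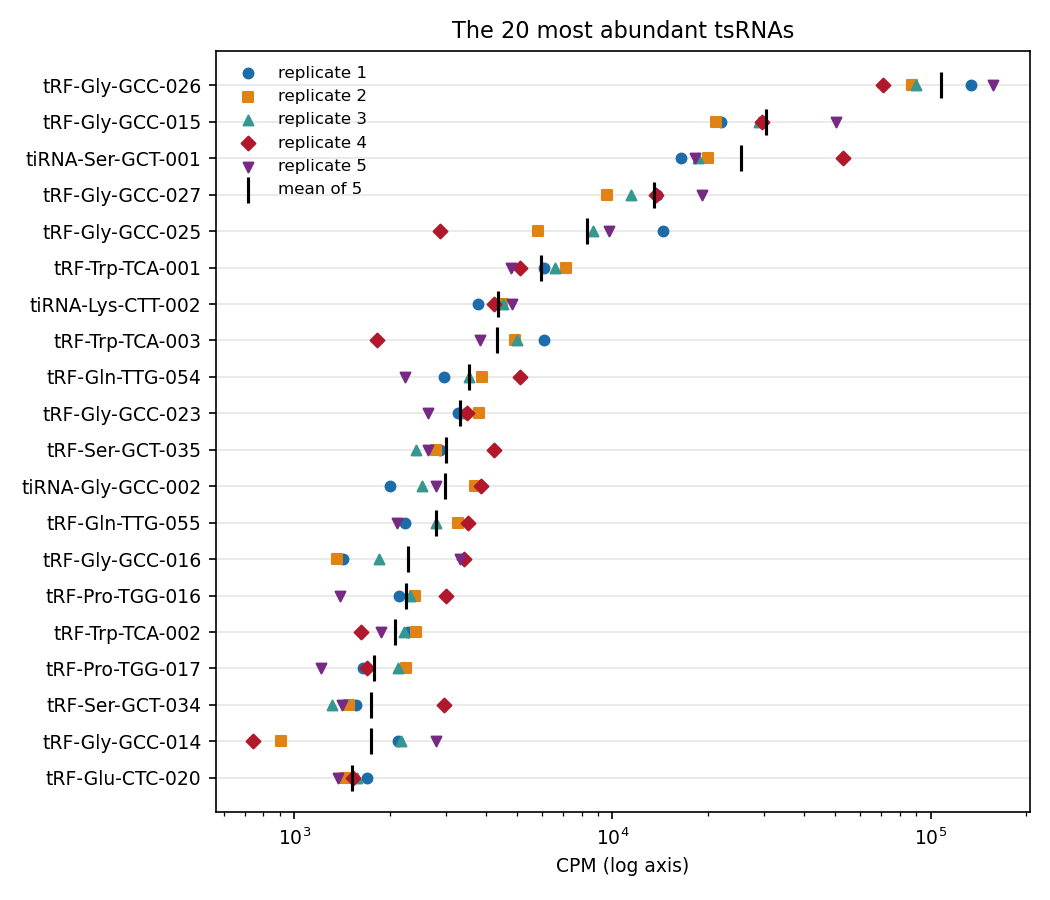
CPM (log axis) of the 20 most abundant tsRNAs, ordered by their mean, with 1 point per untreated rat and a bar at the mean of 5. tRF-Gly-GCC-026 lies between 70941 and 156881 CPM, and the diamonds of replicate 4 lie apart for the 3 Ser-GCT fragments (high) and for tRF-Gly-GCC-025 and tRF-Trp-TCA-003 (low).

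The class of tiRNAs held a larger share of the reads than of the names. With 49 of 714 names (6.86%), tiRNAs took 9.89% (interval 9.69% to 10.1%), 14.2% (14.0% to 14.4%), 12.4% (12.2% to 12.7%), 26.2% (26.0% to 26.3%) and 9.63% (9.47% to 9.79%) of the listed reads in replicates 1 to 5. The mean was 14.5% ± 6.81, and 11.5% without replicate 4. The intervals of replicates 1 and 5 overlapped, and no others did. The class rested on few members: tiRNA-Ser-GCT-001 held 60.2% ± 11.6 of the tiRNA reads, the first 3 tiRNAs 79.9% ± 8.13 and the first 10 tiRNAs 94.1% ± 2.26. With tiRNA-Ser-GCT-001 left out of the reads altogether, the tiRNA share was 5.68% ± 0.821, from 4.76% to 6.47%, and replicate 4, at 6.44%, no longer stood apart. In each rat this share was below the 6.86% of names. The most abundant tRF, tRF-Gly-GCC-026, stayed in the base here. With that tRF left out and tiRNA-Ser-GCT-001 kept, the mean tiRNA share was 22.4%. The tiRNA share thus depended strongly on the leading fragment of either class.

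Parents differed in how far their reads were tiRNAs. A tiRNA was listed for 30 of 46 isoacceptors and for 19 of 20 amino acids, tryptophan being the exception. tiRNAs held 78.7% ± 3.96 of the Ser-GCT reads, 76.8% ± 8.37 of the Lys-CTT reads and 63.5% ± 10.4 of the Gly-CCC reads, the last led by tiRNA-Gly-CCC-002 (522 ± 122 CPM). Arg-CCG and Pro-CGG were also mostly tiRNA, but on 2 tsRNAs each with under 0.01% of the listed reads. In Lys-TTT the share was 28.2% ± 3.54, in Glu-TTC 23.1% ± 12.7 and in Glu-CTC 14.0% ± 5.09. In Gly-GCC, the parent with most reads, tiRNAs held 2.13% ± 1.01. tiRNA-Gly-GCC-002, its main tiRNA, was still the third most abundant of the class, at 2006, 3691, 2523, 3876 and 2789 CPM. The other tiRNAs among the first 10 came from Gln-TTG, Glu-CTC, Pro-TGG, Lys-CTT and, with 2 members, Glu-TTC, with means of 481 to 1169 CPM.

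By amino acid, glycine took 62.7%, 56.8%, 57.4%, 52.5% and 70.6% of the listed reads, a mean of 60.0% ± 6.96. Glycine led in 5 of 5 rats. Serine followed with 7.31%, 10.7%, 9.23%, 24.9% and 6.81%, a mean of 11.8% ± 7.47 that was 8.52% without replicate 4. Tryptophan took 5.54% ± 1.57, glutamine 4.70% ± 1.12, glutamate 4.27% ± 1.08, lysine 2.75% ± 0.411 and proline 2.15% ± 0.616. Valine, leucine and cysteine took 1.52%, 1.27% and 1.26%, and the other 10 amino acids were each under 1%, down to aspartate (0.154% ± 0.0563) and phenylalanine (0.117% ± 0.0369). Of the 19 steps between neighbours in this order, 6 held in all 5 rats: glycine over serine, serine over tryptophan, glutamate over lysine, cysteine over alanine, alanine over arginine and aspartate over phenylalanine. Without replicate 4, 11 steps held in the other 4 rats. Leucine was above cysteine in 1 rat only, replicate 4, and without that rat leucine took 1.18% and cysteine 1.45%.

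Amino acids with many listed fragments were not always those with many reads. Glycine had 77 names, valine 59 and alanine 55, and valine and alanine took 1.52% and 0.884% of the reads. Tryptophan, with 23 names, took 5.54%. Glutamate had the most tsRNAs with a mean of at least 100 CPM among the 20 amino acids, 22 of 43, and the highest median per tsRNA, 100.5 CPM, against 16 of 77 and a median of 10.5 CPM for glycine. In glutamate 16 tsRNAs held 90% of the reads, as in alanine, with 18 in valine and 17 in leucine, against 4 in glycine. The leading tsRNA held 76.8% ± 4.80 of the serine reads, 69.8% ± 4.50 of the asparagine reads (tRF-Asn-GTT-043) and 61.3% ± 5.51 of the glycine reads. It held 13.5% ± 4.79 of the glutamate reads and 15.0% ± 4.91 of the aspartate reads (tRF-Asp-GTC-021).

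**Figure D3:**
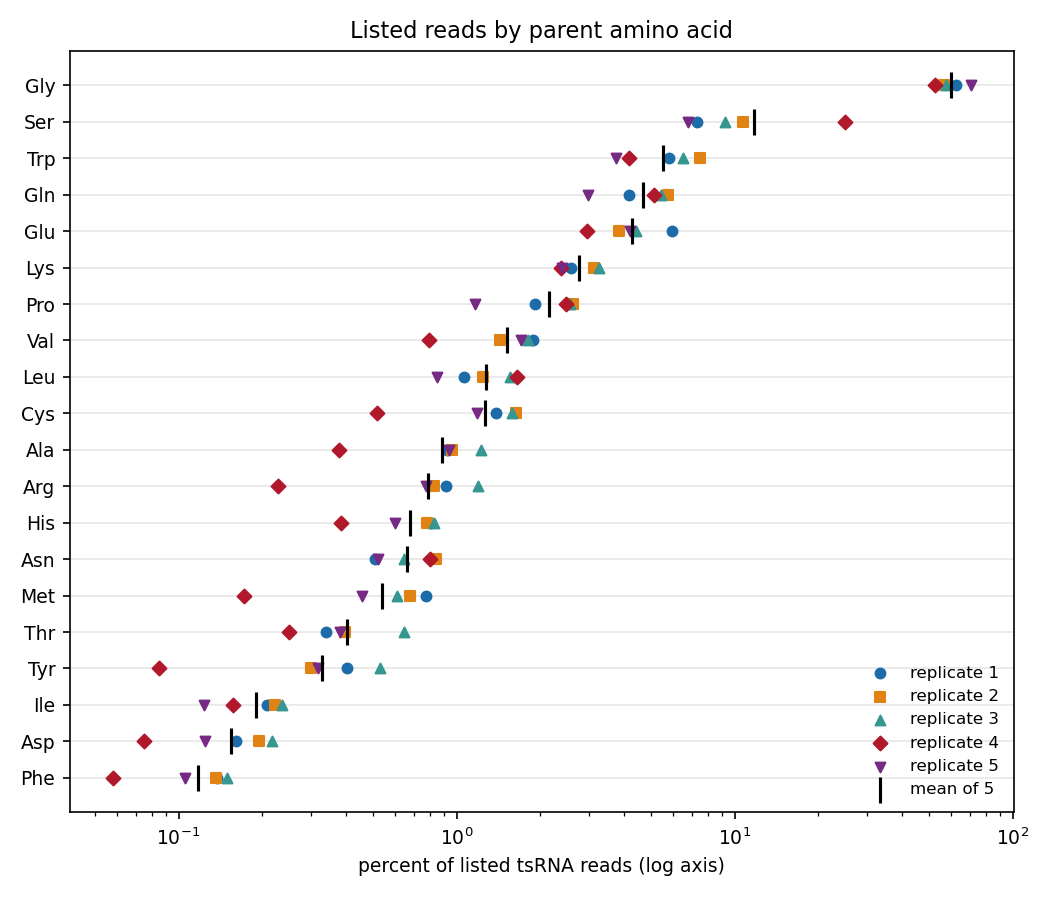
Percent of the listed tsRNA reads (log axis) by parent amino acid, with 1 point per untreated rat and a bar at the mean of 5. Glycine, at 52.5% to 70.6%, lies above all others in each rat, and replicate 4 (diamonds) is high for serine and low for many amino acids in the lower part of the plot.

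Within an amino acid 1 anticodon usually dominated. In each of the 13 amino acids with 2 or more isoacceptors the same anticodon led in all 5 rats. GCC held 99.2% ± 0.155 of the glycine reads, TCA 99.2% ± 0.341 of the tryptophan reads, GCT 97.6% ± 1.34 of the serine reads and TGG 96.4% ± 1.55 of the proline reads. TTG held 90.3% ± 2.99 of the glutamine reads, TGT 85.8% ± 4.94 of the threonine reads, ACG 82.8% ± 6.80 of the arginine reads, CTT 82.4% ± 5.68 of the lysine reads and TGC 81.0% ± 2.66 of the alanine reads. The choice was less one-sided elsewhere. GAT held 71.7% ± 15.8 of the isoleucine reads, CTC 67.9% ± 10.2 of the glutamate reads, TAA 66.1% ± 16.8 of the leucine reads and CAC 64.8% ± 8.05 of the valine reads. Replicate 4 was the highest rat for 3 of these. TAA held 92.9% of its leucine reads, against 47.7% to 68.5% in the other 4 rats, GAT 95.5% of its isoleucine reads, against 52.4% to 75.5%, and CTC 82.7% of its glutamate reads, against 56.9% to 72.2%. Without replicate 4 the means were 59.4% for TAA, 65.7% for GAT and 64.2% for CTC.

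**Figure D4:**
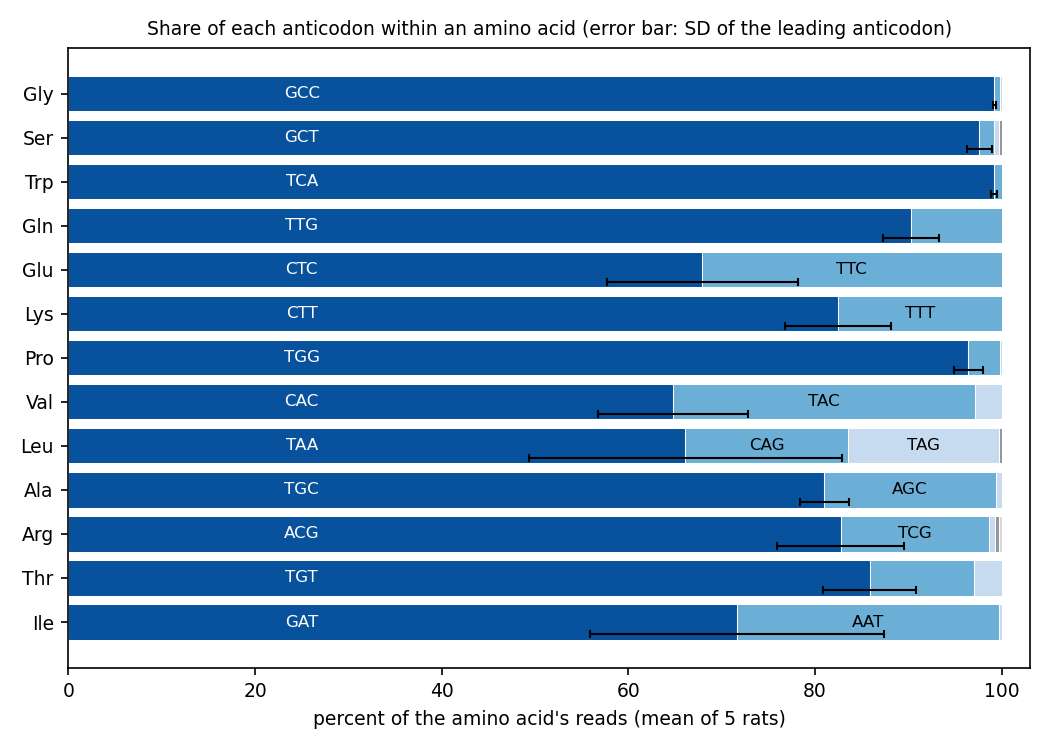
Percent of an amino acid's reads held by each of its anticodons, as the mean of 5 untreated rats, for the 13 amino acids with 2 or more isoacceptors, with the SD of the leading anticodon as an error bar. GCC fills 99.2% of glycine and TCA 99.2% of tryptophan, while CTC, TAA, CAC and GAT hold 64.8% to 71.7% of their amino acids.

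By isoacceptor, 10 of 46 parents took at least 1% of the listed reads each and 91.7% in all. Gly-GCC took 62.3%, 56.3%, 56.8%, 52.1% and 70.1% in replicates 1 to 5. It was followed by Ser-GCT (11.6% ± 7.54, and 8.28% without replicate 4), Trp-TCA (5.50% ± 1.57), Gln-TTG (4.25% ± 1.06), Glu-CTC (2.82% ± 0.380), Lys-CTT (2.25% ± 0.214), Pro-TGG (2.08% ± 0.614), Glu-TTC (1.45% ± 0.761), Cys-GCA (1.26% ± 0.453) and Val-CAC (1.01% ± 0.365). Another 15 parents took under 0.1% each. Gly-CCC (0.325% ± 0.0537) and Gly-TCC (0.141% ± 0.0545), the other glycine parents, had 19 and 23 listed tsRNAs, against 35 for Gly-GCC.

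Isoacceptors whose anticodon is also that of a mammalian mitochondrial tRNA were taken as a list of 22, and all 22 had listed tsRNAs. The list covered 22 of the 46 isoacceptors and 439 of the 714 names. These 22 parents took 28.5%, 35.4%, 33.5%, 41.9% and 21.2% of the listed reads, a mean of 32.1% ± 7.76. Their part of the reads was thus smaller than their part of the names. Nuclear tRNAs carry most of these anticodons too, so the share does not measure the mitochondrial part. Ser-GCT, Trp-TCA, Gln-TTG, Pro-TGG and Leu-TAA together made up most of it, with 24.3% ± 8.82 of the listed reads. They were not the largest on the list throughout: Glu-TTC (1.45%) and Cys-GCA (1.26%) took more than Leu-TAA (0.877%). In 8 of the 13 amino acids with several isoacceptors the leading anticodon was on the list of 22. The other 7 amino acids had 1 isoacceptor each, all on the list, so 22 of 46 is not the base for this count. For Trp-TCA and Ile-GAT none of the 766 tRNA genes in the RefSeq table of the rat assembly GRCr8, which lists nuclear tRNA genes and no mitochondrial ones, had the same anticodon and amino acid. These 2 parents took 5.92%, 7.60%, 6.59%, 4.30% and 3.75% of the listed reads. The nuclear tryptophan tRNA, Trp-CCA, has 7 genes in that table and took 0.0450% ± 0.0180 of the reads. tRF-Ile-GAT-003, the main Ile-GAT fragment, was at 238, 309, 267, 270 and 113 CPM.

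A list of 10 parents known from mammalian tissue and serum for abundant fragments of the tRNA's first part (Asp-GTC, His-GTG, Gly-CCC, Gly-GCC, Glu-TTC, Glu-CTC, Lys-TTT, Lys-CTT, Val-AAC and Val-CAC) took 68.8% ± 7.81 of the listed reads. The list covered 218 of the 714 names and was chosen with earlier results of these data known. The names do not tell which part of a tRNA a fragment comes from, so the share does not measure fragments of the first part. Gly-GCC made up 59.5% of all listed reads and thus most of this share. Some members of the list were scarce: Asp-GTC took 0.154%, with none of its 26 tsRNAs at 100 CPM, and Val-AAC 0.0447%. The lists overlap in 4 parents.

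Some parents with many tRNA genes had few reads. Across the 46 isoacceptors, Spearman's rho between the mean share and the number of genes in the RefSeq table was 0.172 and Pearson's r with the log10 share was 0.0233, given as a description, since the isoacceptors share libraries. Trp-TCA and Ile-GAT entered with 0 genes, in a table that lists no mitochondrial ones. Among the 44 isoacceptors with a gene rho was 0.239. Ala-AGC and Pro-AGG, with 92 genes each, took 0.163% and 0.0692% of the reads, and Gly-GCC, with 22 genes, took 59.5%. Some of these gene models may not be expressed as tRNA, which was not tested. The number of listed tsRNAs of a parent followed its share more closely (Spearman's rho 0.790, Pearson's r 0.788 with the log10 share). These measures are not independent, since the listed tsRNAs are those with reads in the series.

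The spread between rats was described by the coefficient of variation. Over the 406 tsRNAs with a mean of at least 10 CPM, the median coefficient of variation between rats was 49.3%, against 26.1% from counting the recovered reads. Over the 136 tsRNAs with at least 100 CPM it was 43.3%, against 9.78% from counting. Replicate 4 carried much of this spread. Of these 136 tsRNAs it was the lowest of the 5 rats in 84 and the highest in 20, and without it the median was 26.0%. With each library's listed reads as the base, it was 42.8%.

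**Figure D5:**
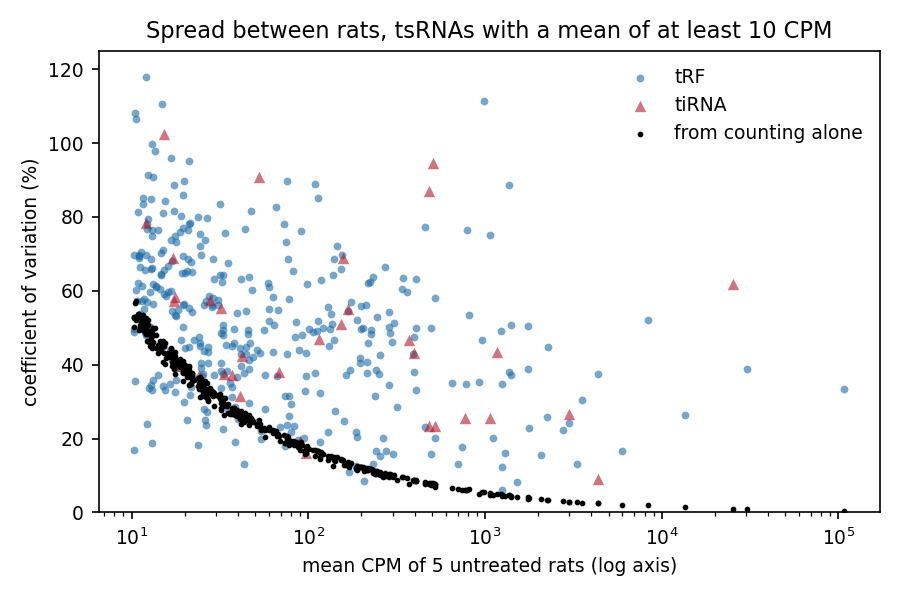
Coefficient of variation between 5 untreated rats (percent) against mean CPM (log axis) for the 406 tsRNAs with a mean of at least 10 CPM, tRFs as circles and tiRNAs as triangles, with black dots for the variation that counting alone gives. Most tsRNAs lie above the black dots, and 6 with means over 100 CPM lie at 85.2% to 111%.

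Fragments of 1 parent could go either way: of the 13 Gly-GCC tsRNAs over 100 CPM, 5 were highest and 5 lowest in replicate 4. The 4 Ser-GCT tsRNAs with at least 100 CPM and the 3 of Leu-TAA were each highest there. tRF-Leu-TAA-025 was at 1102, 1150, 1440, 2612 and 742 CPM, a mean of 1409 CPM that was 1108 CPM without replicate 4. Over all 136 tsRNAs, 61.8% were lowest in replicate 4 and 14.7% highest. Those lowest there included the 8 of Val-CAC, 13 of 14 of Glu-TTC, the 4 of Met-CAT, the 4 of Tyr-GTA and 5 of 6 of Trp-TCA. Cys-GCA, with 5 of 7, was nearer the share over all, and Gln-TTG (7 of 13), Lys-CTT (3 of 6) and Glu-CTC (3 of 8) were below it. tRF-His-GTG-014 was at 937, 867, 920, 298 and 904 CPM, and its coefficient of variation was 34.9% with replicate 4 and 3.28% without. The part of the library total in these values was not tested.

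Glutamate fragments were among the most and the least variable of the abundant tsRNAs. The 5 tsRNAs with the highest coefficient of variation among the 136 were tRF-Glu-CTC-022 (111%), tiRNA-Glu-TTC-002 (94.7%), tRF-Glu-TTC-046 (89.0%), tRF-Glu-CTC-021 (88.6%) and tiRNA-Glu-TTC-001 (87.0%). As shares of the listed reads the same 5 were highest, tRF-Glu-CTC-022 at 101%. tRF-Glu-CTC-022 was at 1713, 163, 367, 130 and 2592 CPM, a 19.9-fold range. tRF-Glu-CTC-021 was at 2709, 285, 1039, 228 and 2616 CPM, and tiRNA-Glu-TTC-002 at 1193, 127, 375, 48.7 and 797 CPM. Replicates 1 and 5 were high and replicates 2 and 4 low in each of these. In 6 of the 136 tsRNAs both replicates 1 and 5 were over 2 times any of the other 3 rats, and these 6 were the 5 above and tRF-Glu-CTC-017. This limit and this last tsRNA were chosen after the values were seen.

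In contrast, 2 other fragments of Glu-CTC were among the 5 steadiest. tRF-Glu-CTC-018 was at 1318, 1179, 1314, 1267 and 1153 CPM, with a coefficient of variation of 6.13%, the lowest of the 136 in CPM, and of 16.9% as a share of the listed reads. tRF-Glu-CTC-020 was at 1695, 1443, 1573, 1530 and 1371 CPM (8.16%, and 17.0% as a share). The rats that were far apart for tRF-Glu-CTC-022 were thus within 1.14 times of each other for tRF-Glu-CTC-018 of the same parent. The other 3 steady tsRNAs were tRF-Pro-TGG-009 (8.48%, mean 207 ± 17.6 CPM), tiRNA-Lys-CTT-002 (9.03%) and tRF-Val-TAC-026 (11.0%, mean 171 ± 18.8 CPM). For tRF-Pro-TGG-009 and tRF-Val-TAC-026 counting alone gives 11.3% and 12.3%, so their spread in CPM was no larger than that. As shares of the listed reads they varied by 12.5% and 16.4%, and the variation that counting gives to shares was not computed. By shares tRF-Pro-TGG-009 was the steadiest of the 136, 4 of these 5 tsRNAs remained among the 5 lowest, and tRF-Gly-GCC-027 (14.1%) took the place of tiRNA-Lys-CTT-002. The ranking by shares was added after the values were seen.

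The leading fragments of the remaining amino acids ranked below the first 20. tRF-Cys-GCA-051 was at 1391, 1733, 1540, 465 and 1675 CPM and tRF-Asn-GTT-043 at 1076, 1523, 1132, 1509 and 1242 CPM. tRF-Arg-ACG-017 was at 1512, 1070, 1796, 253 and 1528 CPM, and tRF-Ala-TGC-028 at 1179, 891, 1217, 210 and 1321 CPM, both with a single low value in replicate 4. Without replicate 4 their means were 1476 CPM, in place of 1232, and 1152 CPM, in place of 964. tRF-Val-CAC-028 was at 1354, 500, 902, 279 and 2296 CPM, with replicates 1 and 5 highest. These 2 rats were the 2 highest in 23 of the 136 tsRNAs (16.9%), among them 4 of the 8 of Val-CAC and 6 of the 22 of glutamate. Replicates 1 and 3 were the 2 highest more often, in 38 of the 136 (27.9%). tRF-Met-CAT-035 averaged 523 ± 303 CPM, tRF-Thr-TGT-034 264 ± 53.1 CPM, tRF-Tyr-GTA-021 224 ± 140 CPM, tRF-Phe-GAA-003 129 ± 71.8 CPM and tRF-Asp-GTC-021 63.3 ± 27.5 CPM. Aspartate was the amino acid whose leading fragment was scarcest, at place 172 among all tsRNAs.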

How the data were processed

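Small RNA of 14 to 40 nt was sequenced from left ventricle after a pretreatment that removes base modifications, per the labels' protocols. Per the submitters' processing notes, cutadapt and edgeR were used, with no version or role. No aligner, tRNA reference or genome build is stated in the sources used here. The authors deposited CPM per tsRNA, 1 column per rat. The largest step of which a library's values are whole multiples, within 0.001 reads, was taken as 1 read: 100% of values were whole. Totals were 269508 to 1128887 reads.

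Shares are percentages of the listed reads of a library, averaged over 5 libraries with equal weight. Python 3.11.15, numpy 2.4.6, pandas 2.3.3 and scipy 1.17.1 were used. The step finding and the spread were tested on simulated data. Listed by rule were the 20 most abundant tsRNAs, the leading one of each amino acid, the 10 most abundant tiRNAs and, at 100 CPM or more, the 5 highest and 5 lowest coefficients of variation. Members and lists were chosen with earlier results of these data known. Reads of each pair of libraries were compared to look for a library deposited more than once, and none was found (chi-square per degree of freedom from 4.71 to 67.5). This treats amplified reads as independent and says nothing of the rats. The labels number the rats and give no batch, so rat and library preparation cannot be told apart. Sequences of tsRNAs were not used here.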

Additional observations from a re-analysis of the deposited data

Results flagged for a closer look

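Of 84 values looked at over the 5 rats, 11 had a highest or lowest library far from the other 4 (a gap to the nearest rat over 0.71 of the whole range). In 10 of the 11 that library was replicate 4. Chance gives about 1 in 20 for independent, normally distributed values. The values here overlap and their distribution was not tested, so the 11 cannot be judged by this rate.

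Replicate 4 was highest for the library total (1128887 reads, against 269508 to 424219 in the other 4 rats), for the tiRNA share of the listed reads (26.2%, against 9.63% to 14.2%), for the serine share (24.9%, against 6.81% to 10.7%) and for the Ser-GCT share (24.8%, against 6.62% to 10.5%). It was also highest for tiRNA-Ser-GCT-001 (53100 CPM, against 16440 to 19983), tRF-Ser-GCT-035 (4258 CPM, against 2412 to 2881) and tRF-Ser-GCT-034 (2948 CPM, against 1310 to 1567). These values are not independent, since the same fragments enter the class, the amino acid and the isoacceptor.

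Replicate 4 was lowest for tRF-Cys-GCA-051 (465 CPM, against 1391 to 1733), tRF-His-GTG-014 (298 CPM, against 867 to 937) and tiRNA-Lys-CTT-003 (289 CPM, against 512 to 586). In replicate 5, 2 tsRNAs held 50% of the listed reads, against 3 in each of the other 4 rats, a difference of 1 in a small whole number. The part of the library total in these values was not tested.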

How the results depend on the processing

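Leaving out 1 rat at a time gave ranges of 26.9% to 29.7% for the listed share of the total, 599.8 to 606.5 tsRNAs detected, 70.9% to 73.1% for the 10 most abundant, 44.8 to 55.8 tsRNAs for 90% of the reads, 11.5% to 15.7% for tiRNAs, 57.4% to 61.9% for glycine, 56.9% to 61.4% for Gly-GCC, 29.7% to 34.8% for the mitochondrial-type list, 66.2% to 71.3% for the list of 10 parents, 36.6% to 52.8% for the median coefficient of variation, 0.159 to 0.199 for the rho with gene number and 6 to 11 for the steps held by all rats, the last without replicate 4. Medians, pooled reads and a minimum of 10 CPM moved these shares by less than 1 SD. Without tRF-Gly-GCC-026 the shares were 57.0% for the 10 most abundant, 22.4% for tiRNAs, 36.9% for glycine, 36.1% for Gly-GCC, 50.4% for the mitochondrial-type list and 51.0% for the list of 10 parents, and 80.4 tsRNAs were needed for 90%, since 37.0% of the reads are then gone from the base. With at least 5 reads, 367.2 tsRNAs were detected. Thinned to 269508 reads, replicate 4 had 451 and the others 566 to 600. Among isoacceptors with a gene, rho was 0.239. Ranked by median CPM, 18 of the 20 most abundant stayed. Leave-one-out values for gene number, steps and ranks were chosen after seeing the data. Depth limits the scarce names: 1 read was worth 0.886 to 3.71 CPM. No paired analysis was possible because only 1 group of rats was used, so no replicate number is shared between groups.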
